A study of Mus musculus with 10 samples.

Results

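Atm, Ddx6, Dcps and Imp3 are 4 genes that handle RNA or DNA damage and lie on mouse chromosome 9 around Pou2f3, the gene removed in the mice studied. They were picked out by name with earlier results of these arrays in view, so the knockout against wild-type values below chose them and are given as a description without a test. They are 4 of the 18193 named genes on the array, and 10 probe sets that each belong to 1 of them were found. A probe set is a group of short array probes designed for a transcript. The samples were gastrocnemius, a calf muscle, from 5 male mice deficient in Skn-1/Pou2f3 and from 5 wild-type males. All mice were fed a chow diet, were 12 to 16 weeks old and had fasted for 18 h before dissection. The labels give both genotypes a mixed 129 x C57BL/6J background, and state that the deficient line had been backcrossed to C57BL/6J for over 10 generations. They call the mice biological replicates. Neither the deleted region of the gene nor the litters of the wild types are described in them.

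The 4 genes act at separate steps. Ddx6 is a DEAD-box RNA helicase of processing bodies, where messenger RNA is held back from translation and its cap is removed. Dcps is the scavenger decapping enzyme, which breaks down the cap left over after a message has been degraded from its 3′ end. Imp3 is a protein of the U3 small nucleolar ribonucleoprotein, part of the small subunit processome that cuts the precursor of ribosomal RNA in the nucleolus. Atm is the protein kinase that double-strand DNA breaks activate, and it phosphorylates p53, Chek2 and the histone H2ax. All of these processes run in most cell types, skeletal muscle fibres included. In the gene order of chromosome 9, counted over every gene in the RefSeq table, Dcps lies 271 places before Pou2f3, and Ddx6, Atm and Imp3 lie 54, 243 and 318 places after it.

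Values are those the authors deposited, taken as log2 from their range of 4.93 to 13.96, and every difference is knockout minus wild type. Of the 45037 probe sets, 86.2% hardly varied, with an SD over the 10 arrays of at most 0.01. The other 6209 are called ordinary-varying here, and only these have differences with a size that can be read. The single Pou2f3 probe set was of the first kind, at 6.47 in both genotypes, and so did not check the labels. All 10 muscle markers were measured, with means of their brightest probe sets between 11.41 and 13.96. Genes of other cells stood out in 5 arrays. The lymphocyte markers, 3 of 10 listed genes with an ordinary-varying probe set, averaged 7.71 in knockout 5 and 7.67 in wild type 3, against 5.58 to 5.69 in the other 8. The 11 epidermis and hair genes averaged 7.06, 7.33, 7.48 and 7.28 in knockout 1, knockout 4, wild type 1 and wild type 3, against 5.87 to 5.89 in the other 6. The muscle markers, with 8 of 10 genes ordinary-varying, averaged 11.86 to 12.01 in knockouts and 11.61 to 11.85 in wild types (exact two-sided permutation p = 0.00794, the smallest that 5 against 5 arrays can give, 0.0556 after adjustment over 7 marker lists). The 5 ordinary-varying endothelial markers averaged 8.19 to 8.27 in knockouts and 8.27 to 8.50 in wild types (exact permutation p = 0.0238, adjusted p = 0.0833). In bulk muscle, fewer cells of a type and less RNA per cell cannot be told apart, and the part of these shifts in the results below was not tested. As a measure of RNA quality, the 3′ probe set of Gapdh lay above its 5′ probe set by 0.413 ± 0.088 in knockouts and by 0.413 ± 0.0696 in wild types (SD, n = 5 each, exact permutation p = 0.992). For beta-actin the gap was 0.619 ± 0.193 in knockouts and 0.526 ± 0.147 in wild types (SD, n = 5 each, exact permutation p = 0.397).

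The upstream sequences of 3 members are shown because Skn-1 is a POU-domain factor, a class that binds the octamer ATGCAAAT. No upstream sequence was matched for Ddx6, so it was not searched. Windows of 250 bases before and 50 after the start site were taken from RefSeq (GRCm38.p6). Atm and its neighbour Npat, a regulator of histone genes, are transcribed away from each other, and their windows share 125 bases, at chr9:53536797-53536921 and read here on the minus strand. The 250 bases before Dcps are at chr9:35175988-35176237 on the minus strand, and those before Imp3 at chr9:56937250-56937499 on the plus strand. Capitals mark CCAAT or its reverse complement ATTGG.
Atm and Npat: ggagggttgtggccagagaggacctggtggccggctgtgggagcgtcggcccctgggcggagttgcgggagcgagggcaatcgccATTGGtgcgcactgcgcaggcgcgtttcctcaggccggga
Dcps: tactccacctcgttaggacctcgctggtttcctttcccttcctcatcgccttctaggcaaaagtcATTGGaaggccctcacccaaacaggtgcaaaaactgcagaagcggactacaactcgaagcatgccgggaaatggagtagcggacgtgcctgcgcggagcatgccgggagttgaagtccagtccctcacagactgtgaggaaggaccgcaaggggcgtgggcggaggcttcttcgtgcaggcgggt
Imp3: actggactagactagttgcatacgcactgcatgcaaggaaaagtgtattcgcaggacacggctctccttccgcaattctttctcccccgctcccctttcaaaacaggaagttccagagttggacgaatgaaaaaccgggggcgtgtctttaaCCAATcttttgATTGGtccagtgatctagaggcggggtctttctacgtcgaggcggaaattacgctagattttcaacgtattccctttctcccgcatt
The octamer ATGCAAAT, searched with its reverse complement ATTTGCAT, was in none of the windows of Atm, Dcps, Imp3 and Npat. It was in 1.74% of the 32851 windows of the table. CCAAT or ATTGG was in each of the 4 windows, and in 37.4% of all windows. The windows of Atm and Dcps held only ATTGG, and that of Atm lies in the stretch shared with Npat, so these 2 windows are not independent. Neither motif contains the other, and a match is a description of the letters and not of a site in use.

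Ddx6 was read by 4 probe sets, of which 1 varied on an ordinary scale. That probe set (1424598_at) stood at 9.37, 9.38, 9.28, 9.47 and 9.44 in knockouts 1 to 5, against 8.88, 8.90, 8.96, 8.90 and 8.79 in wild types 1 to 5. Every knockout array lay above every wild-type array, and the lowest knockout was 0.322 above the highest wild type. The means were 9.39 ± 0.0709 in knockouts and 8.89 ± 0.0627 in wild types (SD, n = 5 each), a difference of 0.50 ± 0.04 (SE), or 1.42 times the wild-type level. The other 3 Ddx6 probe sets hardly varied, at 9.19, 8.88 and 5.93 in both genotypes, so not all of them were dim. The higher reading of this helicase thus rests on 1 probe set of 4. One of those 3 (1439122_at) also had no overlap between the genotypes, but its difference was 0.0002 on the log2 scale and has no size to read.

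Dcps was read by 3 probe sets, and again 1 varied (1424080_at). It stood at 7.38, 7.45, 7.51, 7.40 and 7.43 in knockouts 1 to 5, against 7.48, 7.00, 7.00, 6.90 and 7.02 in wild types 1 to 5. Wild type 1 lay inside the knockout range, while wild types 2 to 5 all lay below every knockout. The means were 7.43 ± 0.0517 in knockouts and 7.08 ± 0.228 in wild types (SD, n = 5 each), and the difference was 0.35 ± 0.10 (SE), or 1.28 times the wild-type level. Without wild type 1 the difference was 0.45 ± 0.04 (SE). Wild type 1 was also the array with the highest mean of epidermis and hair genes, at 7.48. Wild type 3, with 7.28 for those genes, had a Dcps value of 7.00.

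Imp3 had 1 probe set (1416210_at), and it varied. It stood at 9.03, 8.95, 8.91, 8.87 and 8.92 in knockouts 1 to 5, against 9.39, 9.17, 9.31, 9.15 and 9.29 in wild types 1 to 5. The genotypes did not overlap, with a gap of 0.121 between the highest knockout and the lowest wild type. The means were 8.93 ± 0.06 in knockouts and 9.26 ± 0.102 in wild types (SD, n = 5 each), a difference of −0.33 ± 0.05 (SE), so that knockouts had 79.6% of the wild-type level. Wild type 1, which sat with the knockouts for Dcps, had the highest Imp3 value of all arrays.

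Atm had 2 probe sets, of which 1 varied (1421205_at). It stood at 6.33, 6.13, 6.15, 6.23 and 6.17 in knockouts 1 to 5, against 6.60, 6.66, 6.71, 6.60 and 6.66 in wild types 1 to 5. All knockouts lay below all wild types, by at least 0.271. The means were 6.20 ± 0.0803 in knockouts and 6.65 ± 0.0461 in wild types (SD, n = 5 each), a difference of −0.44 ± 0.04 (SE), so that knockouts had 73.5% of the wild-type level. This probe set was dim: the medians of the 10 arrays ran from 6.226 to 6.239, above the knockout mean, and no detection call was at hand to tell it from background. Its difference is therefore no firm measure of how far the RNA level differed. The second probe set of this kinase (1428830_at) was the brighter one and hardly varied, at 7.04 in both genotypes.

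**Figure D1:**
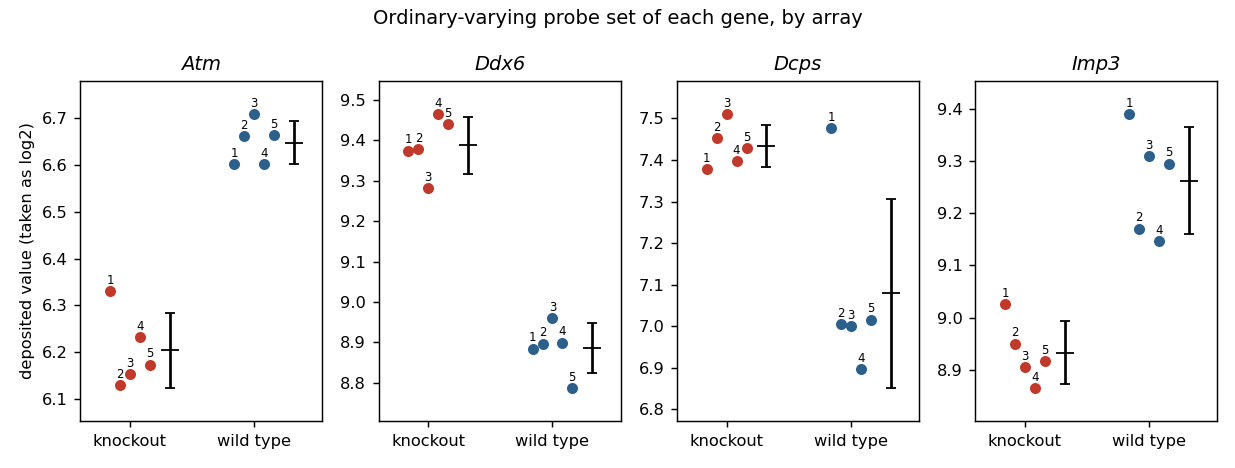
Deposited values (taken as log2, axes not starting at 0) of the ordinary-varying probe set of Atm, Ddx6, Dcps and Imp3 in 5 knockout and 5 wild-type arrays; digits are replicate numbers and bars are mean ± SD. Knockouts lay apart from wild types for Atm, Ddx6 and Imp3, and wild type 1 sat among the knockouts for Dcps, at 7.48.

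The 4 genes did not share a direction: Ddx6 and Dcps lay higher in knockouts, and Imp3 and Atm lower. By limma with an adjusted p of 0.05 over all probe sets, 3 of the 10 member probe sets were called, 1 of Atm and 2 of Ddx6, beside 0.191% of all 45037. No probe set of Dcps or Imp3 was called. Groups without overlap were seen in 3 of the 4 ordinary-varying member probe sets, beside 3.96% of all such probe sets. Since this contrast chose the genes, nothing is read from these counts. The 6 member probe sets that hardly varied had SDs from 0.000108 to 0.000248 and means from 5.93 to 9.19, so both dim and bright probe sets were among them. With the 5 arrays showing lymphocyte or epidermis genes left out, a choice made after seeing the data, the differences were 0.469 for Ddx6, 0.509 for Dcps, −0.276 for Imp3 and −0.501 for Atm. That fit kept knockouts 2 and 3 and wild types 2, 4 and 5, and limma called 0 of all 45037 probe sets in it. The calls of Atm and Ddx6 thus ended there with all others (6 of the 10 member probe sets had an unadjusted p under 0.05). Fits with 1 array left out reuse the contrast that chose the genes, so nothing is read from their calls either. In all 10 of them the ordinary-varying probe sets of Atm and Ddx6 were called. The second called Ddx6 probe set was lost in 9 of the 10, and Dcps was called in the fit without wild type 1. Imp3 was called when dim or hardly varying probe sets were left out and with array weights.

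The genes next to the members did not share one direction either. At 5 places before Atm, Ddx10, a nucleolar DEAD-box helicase, stood at 6.96 ± 0.0607 in knockouts and 6.64 ± 0.0994 in wild types (SD, n = 5 each). Its genotypes did not overlap, and its difference of 0.32 ± 0.05 (SE) was opposite to that of Atm but did not pass (limma adjusted p = 0.0705). On the other side, Acat1, a mitochondrial thiolase of ketone and isoleucine breakdown, differed by 0.16 ± 0.13 (SE, limma adjusted p = 0.939). Npat, directly beside Atm and sharing the sequence printed above, had 2 probe sets that hardly varied, with means near 7.53 and 5.89 in both genotypes. Of the 3 ordinary-varying probe sets of Cul5, a cullin of ubiquitin ligases 3 places after Atm, those at 0.78 ± 0.12 and 0.57 ± 0.11 (SE) had no overlap between genotypes and the third was at 0.07 ± 0.07. None of them passed (limma adjusted p from 0.0637 to 0.955), and Cul5 was named after its values were seen.

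Beside Ddx6, the nearest ordinary-varying genes lay lower in knockouts. Rps25, a protein of the small ribosomal subunit 9 places before it, stood at 7.10 ± 0.0801 in knockouts and 7.49 ± 0.0903 in wild types (SD, n = 5 each), and was lower by a difference of −0.39 ± 0.05 (SE, limma adjusted p = 0.0385). Atp5l, a subunit of ATP synthase 15 places after Ddx6, differed by −0.22 ± 0.05 (SE) without overlap and did not pass (limma adjusted p = 0.179). The nearest ordinary-varying gene before Imp3 was the calcium-binding protein gene Rcn2, 16 places away. It differed by −0.28 ± 0.05 (SE, limma adjusted p = 0.0908), again without overlap. The 2 probe sets of Sin3a, a scaffold of histone deacetylase complexes 4 places after Imp3, overlapped between genotypes and were at −0.02 ± 0.02 and −0.04 ± 0.02 (SE, limma adjusted p = 0.954 and 0.661).

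Taking the 5 measured genes on each side of each member, 40 genes had 75 probe sets, of which 13 from 8 genes varied on an ordinary scale. Only the Rps25 probe set was called by limma, as lower, beside 0.0355% of all probe sets called lower. This call was lost without knockout 2, 3, 4 or 5 and without wild type 1, 3, 4 or 5. Without wild type 1, 2 other probe sets were called instead, both higher in knockouts: 1 of Tirap at 0.70 ± 0.08 and that of Srpr at 0.57 ± 0.07 (SE, limma adjusted p = 0.0368 and 0.0437). Groups did not overlap in 6 of the 13, 5 higher and 1 lower in knockouts, beside 3.37% and 0.596% of all ordinary-varying probe sets. Over the whole stretch from Dcps to Imp3, members left out, 79 probe sets of 59 genes varied, and 27 of them had no overlap, 11 higher and 16 lower in knockouts. That is 34.2% of the 79, and the ends of the stretch were set by members chosen on the same contrast.

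**Figure D2:**
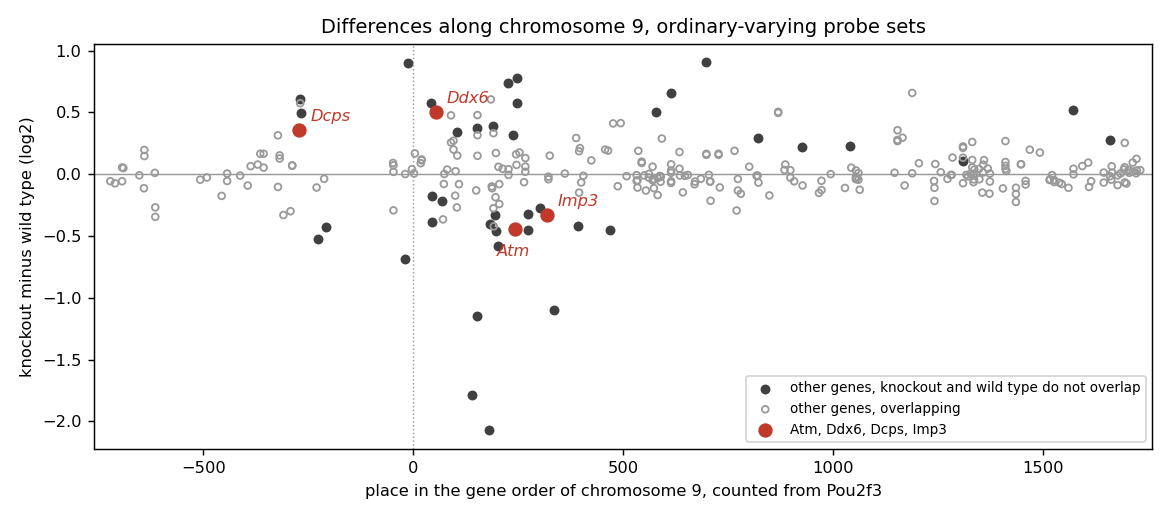
Difference between knockout and wild type (log2, vertical) of each ordinary-varying probe set along chromosome 9, in gene order counted from Pou2f3 (horizontal); filled points have no overlap between the 5 knockout and 5 wild-type arrays. Dcps and Ddx6 lie above 0, Atm and Imp3 below, and filled points of both signs lie between them.

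Around Dcps, wild type 1 stood with the knockouts in more than 1 gene. Tirap, an adaptor of Toll-like receptor signalling 2 places after Dcps, had 2 ordinary-varying probe sets. One stood at 7.14, 7.46, 7.40, 7.44 and 7.36 in knockouts 1 to 5, against 7.13, 6.75, 6.66, 6.73 and 6.51 in wild types 1 to 5. The other stood at 7.57, 7.92, 7.87, 8.02 and 8.01 in knockouts, against 7.67, 7.23, 7.24, 7.35 and 7.03 in wild types. In both, wild type 1 was the highest wild type and close to knockout 1, the lowest knockout. Their differences of 0.61 ± 0.11 and 0.57 ± 0.13 (SE) did not pass (limma adjusted p = 0.129 and 0.243). For Srpr, a receptor for the signal recognition particle 5 places after Dcps, wild type 1 was at 9.65, the knockouts between 9.75 and 9.95, and the other wild types between 9.13 and 9.45. Srpr was named after its values were seen. On the other side of Dcps, the 2 probe sets of the transcription factor gene Ets1, 17 places away, overlapped between genotypes and differed by 0.07 ± 0.14 and 0.07 ± 0.17 (SE, limma adjusted p = 0.989 and 0.993).

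The count was then made beside all 4 members. With 10 neighbouring genes on each side, 33 ordinary-varying probe sets were available, members included, and with wild type 1 set aside the genotypes did not overlap in 17 of them. Wild type 1 was nearer the knockout mean than the mean of the other wild types in 6 of these 17: those of Dcps, both of Tirap, and those of Srpr and Ube4a, and 1 of Cul5. Ube4a, a ubiquitin ligase 17 places after Ddx6, was at 7.46 in wild type 1, at 7.25 to 7.70 in knockouts and at 7.77 to 8.04 in the other wild types. For Ddx6, Atm and Imp3 wild type 1 was on the wild-type side. With each other array set aside in the same way, between 0 and 2 probe sets out of 14 to 16 lay nearer the other genotype, the 2 being those of Fli1 and Tirap in knockout 1. This count was made, and Ube4a and Fli1 were named, after the values were seen.

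**Figure D3:**
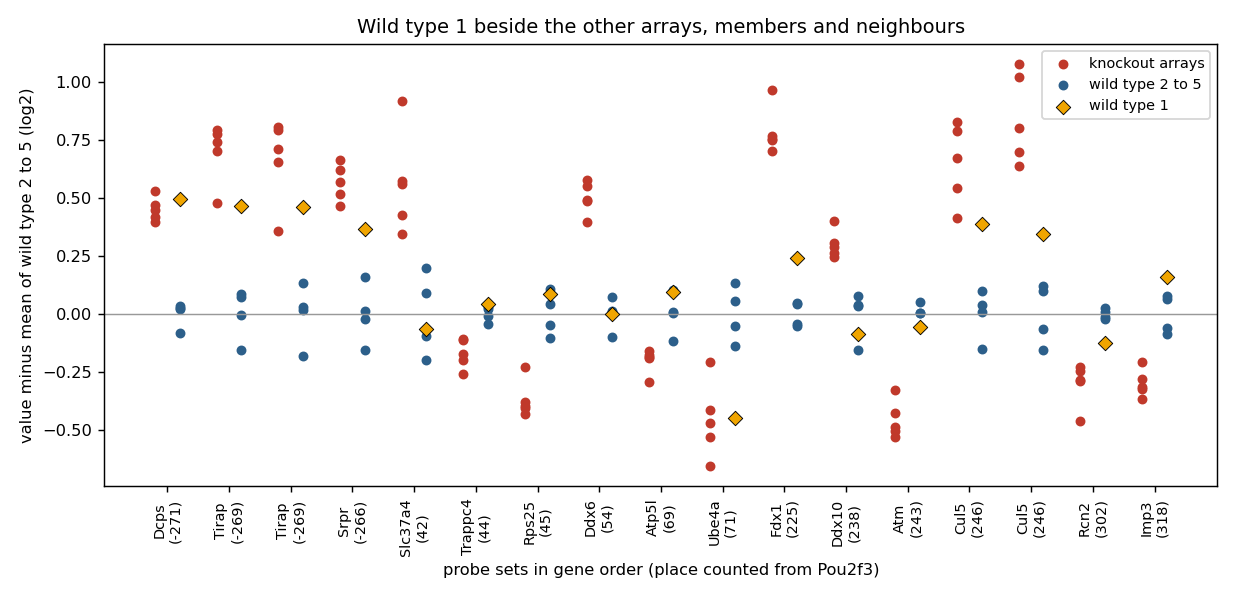
Values of the 17 member and neighbour probe sets whose genotypes did not overlap once wild type 1 was set aside, each minus the mean of wild types 2 to 5 (log2), in gene order with the place from Pou2f3 in brackets. Wild type 1 (diamonds) lies with or near the knockouts for Dcps, Tirap, Srpr, Ube4a and a probe set of Cul5, and with the wild types for Ddx6, Atm and Imp3.

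In 7 lists of RNA decay, ribosome assembly, DNA damage and related families, 220 of 232 genes were measured when members were left out, with 479 probe sets, of which 83 from 50 genes varied on an ordinary scale. By limma 2 of the 479 were called, both higher in knockouts, or 0.418%, beside 0.155% of all probe sets called higher and 0.191% called in either direction. Nothing particular to these processes is read from that count, which was 0 after quantile normalisation, after centring the arrays on their medians, and without the 5 arrays showing lymphocyte or epidermis genes. The 2 were probe sets of Smc1a, a cohesin subunit, and Rrm2b, a p53-induced ribonucleotide reductase subunit. Both hardly varied, so no size can be given, and both are named after their values were seen. The median difference of the 83 was −0.028, beside −0.002 over all 6209 ordinary-varying probe sets. At an unadjusted limma p under 0.05 were 33 of the 479, beside 2980 of all 45037. Such counts for the single lists below are to be set beside that share, and nothing is read from them.

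For mRNA decay and decapping, the processes of Ddx6 and Dcps, 63 genes were measured and none of their 155 probe sets was called by limma, with 12 at an unadjusted p under 0.05. Of 34 ordinary-varying probe sets 15 were higher and 19 lower by their means, between −0.203 and 0.282. The smallest p-values belonged to 2 genes of nonsense-mediated decay, the kinase Smg1 at 0.23 ± 0.08 in 1 of its 2 varying probe sets and the endonuclease Smg6 at 0.23 ± 0.09 (SE, limma adjusted p = 0.606 and 0.678). Among the other DEAD-box helicases none of 77 probe sets was called by limma, with 4 at an unadjusted p under 0.05. Of 16 ordinary-varying ones, from only 8 genes, 12 were lower by their means (median −0.081), beside 3155 of all 6209. Ddx10, described above as the neighbour of Atm, was alone among these 16 in having no overlap, and Eif4a1, the helicase that unwinds messages for translation, differed by −0.13 ± 0.06 (SE, limma adjusted p = 0.804). In the histidine triad family, to which Dcps belongs, none of 7 probe sets was called by limma and 1 had an unadjusted p under 0.05, with Hint3 at −0.11 ± 0.13 and Hint1 at −0.05 ± 0.07 (SE, limma adjusted p = 0.971 and 0.974).

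For the small subunit processome, which holds Imp3, 46 other genes with 94 probe sets were measured and none was called by limma, with 7 at an unadjusted p under 0.05. Among its 10 ordinary-varying probe sets, from 7 genes, 3 had the higher mean in knockouts and 7 the lower (median −0.02). Utp11, a component of that complex, was at 8.95 ± 0.0417 in knockouts and 9.08 ± 0.0786 in wild types (SD, n = 5 each), a difference of −0.13 ± 0.04 (SE, limma adjusted p = 0.498). The 2 varying probe sets of nucleolin, Ncl, disagreed in sign, 1 at 0.25 ± 0.09 (SE, limma adjusted p = 0.624) and the other at −0.05.

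Of DNA damage signalling and break repair, the field of Atm, little could be read. Just 4 of 89 probe sets, from 3 of 41 genes, varied on an ordinary scale, and these lay between −0.017 and 0.213 with no called probe set among them. Over all 89, limma called 1, that of Smc1a, and 7 had an unadjusted p under 0.05. Xrcc5, a subunit of the Ku complex that holds broken ends, differed by 0.21 ± 0.10 and Parp1, which marks breaks with poly(ADP-ribose), by 0.11 ± 0.09 (SE, limma adjusted p = 0.801 and 0.944). Among p53 target genes 26 were measured, with 50 probe sets, of which limma called 1, that of Rrm2b, and 2 had an unadjusted p under 0.05. Of the 18 ordinary-varying probe sets, from 10 genes, 6 were higher and 12 lower by their means, between −0.265 and 0.2 (median −0.025). Both probe sets of the cell cycle inhibitor Cdkn1a, named after their values were seen, were at −0.21 and −0.26. The apoptosis regulator Phlda3 was at 0.14 ± 0.09 and 1 probe set of the cyclin gene Ccng1 at 0.20 ± 0.12 (SE, limma adjusted p = 0.89 and 0.892), while the other Ccng1 probe set was at −0.07. Of the kinases related to Atm and their cofactors, none of 26 probe sets was called by limma, with 1 at an unadjusted p under 0.05, and Smg1 alone varied. The lists held 34 probe sets on chromosome 9, among them those of Chek1, H2ax, Mre11a, Edc3 and Npat. Of these 34 only 1 of Ddx10 varied on an ordinary scale and none was called by limma, with 2 at an unadjusted p under 0.05.

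**Figure D4:**
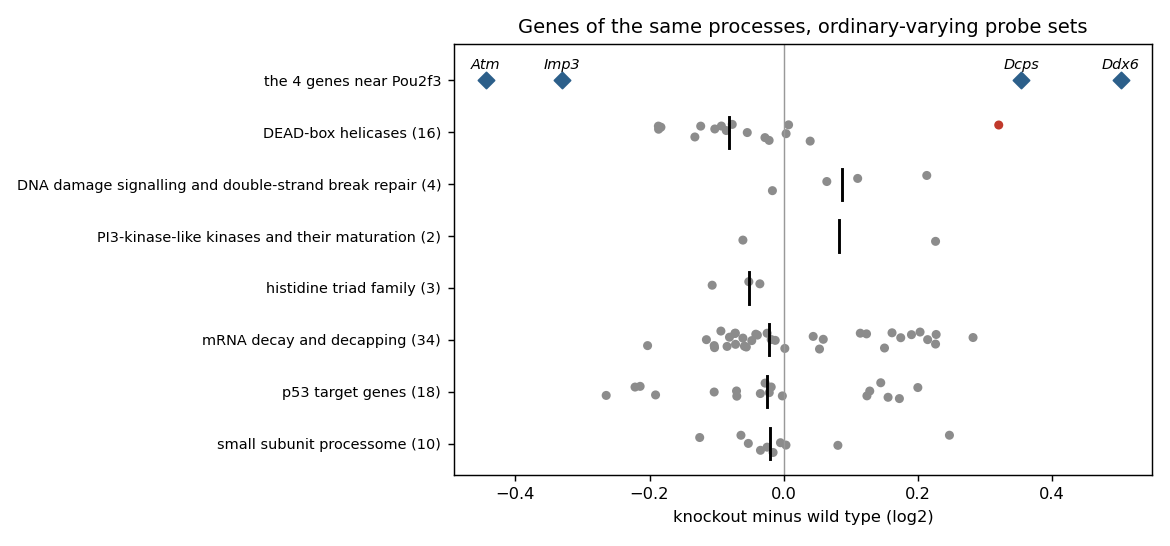
Difference between knockout and wild type (log2) of each ordinary-varying probe set in 7 lists, members left out, with the number of probe sets in brackets and black lines at the medians; the 4 members are in the top row. The list members lie between −0.265 and 0.321, and the 1 coloured point without overlap between genotypes is Ddx10.

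The arrays also showed which other probe sets varied like the members inside each genotype. For each member, deviations from the genotype mean over the 10 arrays were compared with those of 5445 ordinary-varying probe sets of other single genes, and the 3 nearest by Pearson's r are named. These are descriptions of the same 10 arrays, picked as the highest of many. Imp3 was nearest to Rps10 (r = 0.985), Eef1b2 (r = 0.984) and Rpl35 (r = 0.979), 2 ribosomal protein genes and an elongation factor subunit, none of them on chromosome 9. Without wild type 1, which had the highest Imp3 value, these r were 0.976, 0.985 and 0.968. Dcps was nearest to Mapkapk5 (r = 0.978), Crym (r = 0.968) and Yaf2 (r = 0.963), but its deviations were led by wild type 1, and over the other 9 arrays these r were 0.727, 0.721 and 0.581. Ddx6 was nearest to Vegfa and Nceh1 (both r = 0.870) and Xiap (r = 0.864), and Atm to Flvcr1 (r = 0.906), Ppm1k (r = 0.894) and Csta1 (r = 0.883). No gene was among the 3 nearest of more than 1 member.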

How the data were processed

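Gastrocnemius RNA from 10 mice was hybridised to Affymetrix mouse arrays, 1 array a mouse, after 3′ labelling of 100 ng, per the labels' protocols. The deposited table holds the authors' processed values, taken as log2 from their range. Their base, software, background correction and summarisation were not given in the sources used here, so direction and order are firmer than size. No detection calls were used, and the number of arrays limits precision.

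Of 45101 probe sets, 64 controls were left out. Of the other 45037, 34945 had 1 gene in the platform annotation, 932 several and 9160 none. Gene names were updated by identifier for 34741 probe sets through RefSeq's GRCm38.p6 gene table, used for names and gene order. An ordinary-varying probe set has an SD over 10 arrays above 0.01. Array medians were 6.226 to 6.239, and arrays correlated at 0.95 to 0.993 over ordinary-varying probe sets.

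Genotypes came from the labels, and p-values set differences against the spread between these mice. Limma's SEs also draw on the spread of all fitted probe sets, most of which hardly varied. For Atm the SE was 0.04 with all probe sets and 0.052 with ordinary-varying ones only. The deposited log2 values were fitted with limma 3.58.1 in R 4.3.3 (lmFit, eBayes, Benjamini-Hochberg, threshold 0.05) over all probe sets. Marker lists and 3′ to 5′ differences were tested with exact two-sided permutation. On data simulated for the genotype comparison over 45037 probe sets in 5 runs, limma found 36.6% of changes of 0.5 and 77% of changes of 1. Of its calls 6.73% were false, and it made 0 calls in a further run with nothing changed. Changes were put into ordinary-varying probe sets only. The simulated noise was independent between probe sets, so shifts shared by many probe sets of an array were not covered. Members and lists were chosen with earlier results of these data known. Named genes are all members, in each list up to 4 that passed by smallest p or else the 2 with the smallest p (ordinary-varying probe sets), the 3 most alike in deviation, the nearest ordinary-varying neighbour on each side, and Pou2f3. No ordinary-varying probe set of the erythroid markers was found. Adipocyte, macrophage and Schwann cell markers, with 5, 8 and 2 ordinary-varying genes, differed by 0.079, 0.011 and 0.116 (exact permutation p = 0.754, 0.968 and 0.341). Epidermis and hair genes differed by −0.073 and lymphocyte genes by 0.015 (exact permutation p = 0.778 and 0.762).

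Alternatives covered normalisation, filters on level and variation, limma settings, array weights, a replicate block, each array left out, and the arrays with genes of other cells left out.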

Additional observations from a re-analysis of the deposited data

Results flagged for a closer look

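Of 70 groups of 5 arrays examined for a single array far from the rest, 11 stood out, where chance gives about 1 in 20. Among the members this was Dcps, for which wild type 1 was at 7.48 against 6.90 to 7.02 in the other wild types. Among chromosome 9 neighbours, Rps25 was at 7.24 in knockout 1 against 7.04 to 7.09 in the other knockouts, and Atp5l at 12.10 in knockout 5 against 12.20 to 12.23. Rcn2 was at 8.19 in knockout 4 against 8.36 to 8.42 in the other knockouts, and 1 probe set of Sin3a at 6.84 in wild type 2 against 6.76 to 6.77 in the other wild types. Both probe sets of Ets1 were high in wild type 3, at 8.76 against 8.16 to 8.31 and at 8.81 against 8.13 to 8.24 in the other wild types. Among the genes of the lists, Parp1 was at 8.12 in wild type 4 against 7.81 to 7.87, and Phlda3 at 10.46 in wild type 5 against 10.65 to 10.68. The lymphocyte markers averaged 7.71 in knockout 5 against 5.58 to 5.66 in the other knockouts, and 7.67 in wild type 3 against 5.58 to 5.69 in the other wild types.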

How the results depend on the processing

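Over 18 alternatives, which all read the ordinary-varying probe sets, the member differences kept their direction. The filters, trend and robust fitting and the replicate block cannot change a difference of group means. All of the alternatives reuse the contrast that chose the genes, so nothing is read from the kept direction. They ran from 0.469 to 0.529 for Ddx6, 0.309 to 0.509 for Dcps, −0.359 to −0.276 for Imp3 and −0.501 to −0.426 for Atm. With 1 array left out they were 0.478 to 0.529, 0.309 to 0.454, −0.359 to −0.298 and −0.476 to −0.426. The fit of the brightest probe set of each gene read Atm and Ddx6 by probe sets that hardly varied (1428830_at and 1434697_at). Their differences were 0.0003 and 0.0001. None of the 4 members was called by limma in that fit (3 had an unadjusted p under 0.05). The number of probe sets limma called was less stable: 86 in all, 43 after quantile normalisation, 143 when only ordinary-varying probe sets were tested, 5 with the brightest probe set of each gene (987 at an unadjusted p under 0.05), and 31 to 57 with 1 array left out. It was 0 with the 5 arrays showing lymphocyte or epidermis genes left out (2672 unadjusted). The replicate number as a block gave 5, none of them a member. Deviations of same-numbered arrays correlated at r from −0.4 to 0.322, which cannot exclude shared litters or days. Whether the numbers pair the mice is therefore not known. In the lists, 2 calls became 0 after quantile normalisation, centring on the median, the replicate block and without those arrays (5, 6, 34 and 25 unadjusted), 4 among probe sets above the overall median, 1 among ordinary-varying ones, and 1 to 3 with 1 array left out. For the neighbours, 1 call became 0 after quantile normalisation, with trend and robust fitting, the replicate block and without those arrays (8, 17, 17 and 12 unadjusted). It became 4 above the overall median, 7 among ordinary-varying probe sets, 3 with array weights, 2 with 10 genes a side, and 0 to 2 with 1 array left out. With 1 array left out, marker differences changed sign for adipocyte (−0.07 to 0.239), epidermis and hair (−0.304 to 0.178), lymphocyte (−0.405 to 0.427) and macrophage (−0.107 to 0.148) lists, as did the Gapdh 3′ to 5′ difference (−0.029 to 0.023). The causes were not tested. Quantile normalisation was not run for the 3′ to 5′ controls.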
